A study of Cricetulus griseus with 8 samples.

Results

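The 10 genes described here are the transcription factors Egr1, Egr2 and Egr3 and 7 inhibitors that act on the ERK pathway, the phosphatases Dusp4, Dusp5 and Dusp6 and the inhibitors Spry2, Spry4, Spred1 and Spred2. They were chosen by name, with earlier results of these data known. All 10 were found among the 26776 named genes of the deposited table. All 10 passed the filter on low values and were tested. RNA was sequenced from LR73 cells, a line derived from Chinese hamster ovary cells that engulfs dying cells and that the labels call a fibroblast, in 2 groups of 4 libraries. The phagocytes were cultured alone or together with apoptotic cells. The apoptotic cells were Jurkat cells, a human T cell line, that had received UV-C light at 1500 mJ and a further 4 h of culture before the co-culture. Both groups grew in alpha-MEM with fetal bovine serum. The length of the co-culture is not given in the sources used here, and LR73 is 1 line, so the replicates do not sample different donors or animals.

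The ERK kinases stand at the end of a chain that runs from growth factor receptors through Ras, Raf and MEK. Active ERK phosphorylates ETS factors that sit beside the serum response factor on the promoters of immediate early genes, and Egr1, Egr2, Egr3 and Fos are transcribed within minutes of a stimulus such as serum. The pathway also induces its own inhibitors. Dusp4 and Dusp5 encode phosphatases that remove phosphate from MAP kinases in the nucleus and Dusp6 one that acts on ERK in the cytoplasm, whereas Sprouty and Spred proteins act further up, between the receptor and Raf. In fibroblasts these transcripts are widely used as a readout of ERK activity, because most of them are short-lived. Protein levels and phosphorylation were not measured in these libraries.

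Between 22.7 and 29.7 M (mega) reads per library fell in named genes. Levels are given as normalized counts, the reads of a gene divided by 1 size factor per library, and were compared on the log2(normalized count + 1) scale by limma with Benjamini-Hochberg adjustment over 13494 genes. On the leading principal component (36.8% of the variance), which also separated the groups, alone library 1 lay at -25.1, the other 3 alone libraries at -9.1 to -5.7 and the co-cultures at 9.8 to 13.6. Of 15 fibroblast markers in the table, 12 averaged 10 normalized counts or more. The 15 together summed to 168513 to 172919 normalized counts in cells alone and 195721 to 197767 in co-cultures. Most of that sum was Vim, at 111964 and 130760 normalized counts on average. Vim, Col5a2 and Col6a1 rose, Dcn fell, and the other 8 tested were not called. The defining marker Thy1 had no read in any library. By counting error alone, a count of 0 in a single library allows up to 3 reads there, and 0 in every library allows fewer per library. Col1a1 and Col1a2, which encode collagen I, had group means of at most 1.41 normalized counts. Of 27 T cell markers in the table, Cd3d, Cd3g, Cd2, Lcp2, Ubash3a and Sit1 were among those with no read in any library, and 7 averaged 10 normalized counts or more. The 27 markers together summed to 1762 to 1926 in cells alone and 1659 to 1719 normalized counts in co-cultures. Of the 7 T cell markers tested, 0 rose, Cd28 and Themis fell and 5 were not called, with a median log2 fold change of -0.20. Another 18 T cell markers each had at most 5 reads over all 4 alone libraries. Together these 18 had 0 to 5 reads per library in cells alone and 8 to 17 in the co-cultures. Taken singly, 10 of the 18 had a higher read total with apoptotic cells than alone, and 1 had a lower total. Among the 10, Lck had 3, 3, 0 and 3 reads in the co-cultures and Zap70 had 1, 2, 0 and 2. Both had 0 reads in every alone library. Picking markers that are low in cells alone favours more reads in the co-cultures. By the same rule, 6 epithelial and myeloid markers had 7 reads in all alone libraries and 8 in all co-cultures. Of all 11 such markers in the table, 4 averaged 10 normalized counts or more. The 11 together summed to 373 to 409 normalized counts in cells alone and 310 to 363 in co-cultures. Of the 4 tested, 0 rose, Cdh1 fell and 3 were not called.

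With apoptotic cells, 5 of the 10 genes rose by limma at an adjusted p under 0.05, where 6.36% of all tested genes rose. They were Egr1, Egr3, Dusp4, Dusp5 and Dusp6, and the groups did not overlap in any of these 5, where 11.4% of all tested genes were higher in every co-culture than in every alone library. Egr2, Spry2, Spry4, Spred1 and Spred2 did not pass the threshold. None of the 10 fell by limma, where 5.31% of all tested genes did, with 0 lower also at an unadjusted p under 0.05, by edgeR and by DESeq2. The median log2 fold change was 0.23 over the 10 genes and 0.0015 over all tested genes. In bulk RNA, a change in the share of cells that hold a transcript and a change in the amount per cell cannot be told apart.

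**Figure D1:**
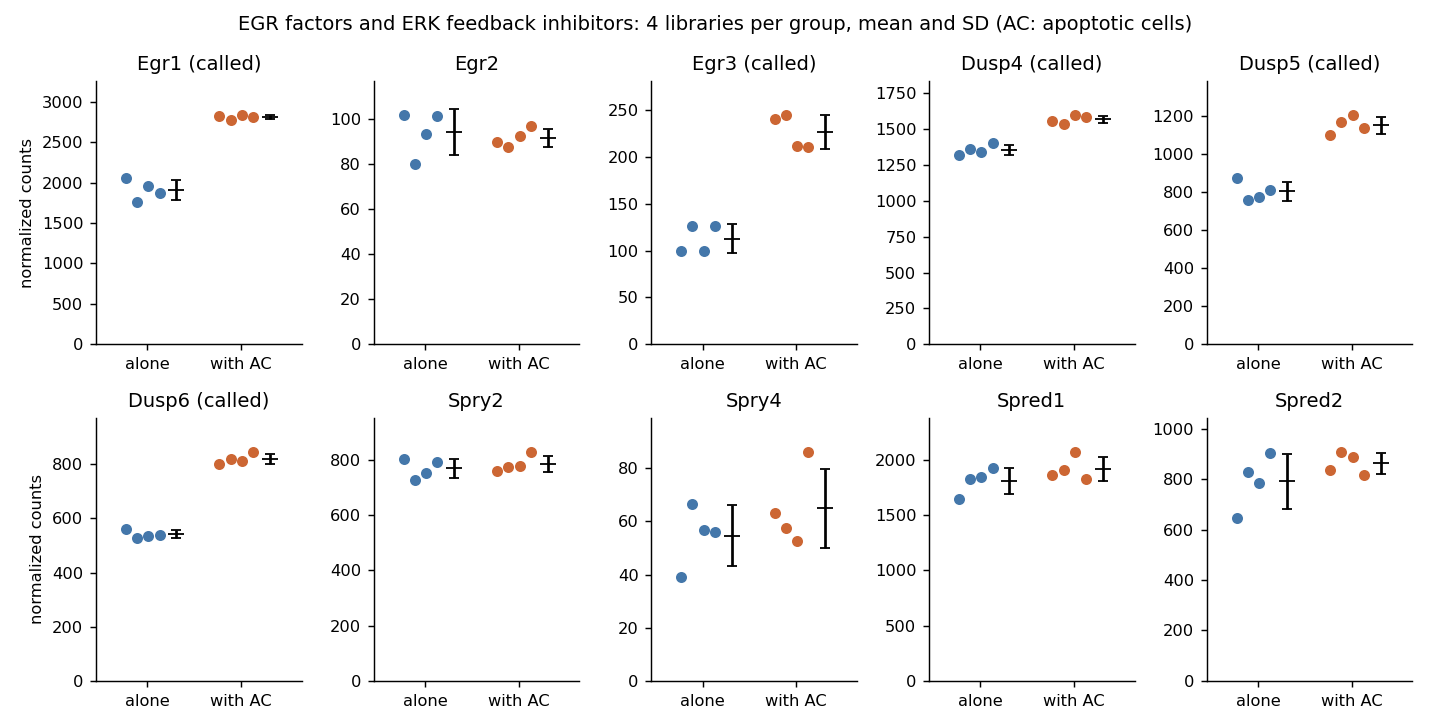
Normalized counts (y axes, from 0) of the 10 genes in each of 4 libraries of cells alone and 4 with apoptotic cells (points), with the mean and SD of each group (bar and whiskers). The groups separate fully for Egr1, Egr3, Dusp4, Dusp5 and Dusp6, titled as called, and overlap for the other 5.

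Among the transcription factors, Egr3 had the largest change of the 10 genes. Egr3 encodes a zinc finger factor that binds the same GC-rich element as Egr1 and is itself induced by many growth stimuli. It stood at 99.7, 126, 99.5 and 126 normalized counts in the alone libraries and at 241, 244, 212 and 210 in the co-cultures. The lowest co-culture library lay 84.2 normalized counts above the highest alone library, and the spread within each group was smaller than that gap. The means were 113 ± 15.3 and 227 ± 18.2 normalized counts (mean ± SD, n = 4 per group), and the log2 fold change was 1.01 (standard error 0.10, 95% interval 0.78 to 1.24, adjusted p = 0.00026). Of the 13494 tested genes, 24 had a log2 fold change at least this high, Egr3 included.

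Egr1 is the immediate early member of the family that most cell types induce first after serum. Its values were 2061, 1761, 1952 and 1870 normalized counts alone and 2821, 2770, 2831 and 2813 with apoptotic cells. All 4 co-cultures lay within a narrow band above the alone libraries. The coefficient of variation was 6.64% alone and 0.957% in co-culture. The counting of its reads gives 2.23% and 1.92%, so the spread in co-culture was below counting error. Egr1 rose from 1911 ± 127 to 2809 ± 26.9 normalized counts, by 0.56 on the log2 scale (standard error 0.05, adjusted p = 6.8e-05), which is 1.47-fold (95% interval 1.37 to 1.58).

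Egr2, known for its part in the myelination program of Schwann cells, did not follow its relatives. It stood at 102, 80.0, 93.4 and 101 normalized counts alone and at 89.9, 87.4, 92.3 and 96.9 with apoptotic cells. All 4 co-cultures lay inside the range of the alone libraries. The log2 fold change was -0.03 (standard error 0.10, 95% interval -0.25 to 0.19, adjusted p = 0.859), and its sign turned without alone library 1 or alone library 4 (0.0059 and 0.0048). The spread of Egr2 in cells alone, a coefficient of variation of 10.8%, was close to the 10.1% that the counting of its reads gives.

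All 3 of the phosphatase genes rose. Dusp6, whose product is selective for ERK, went from 561, 528, 535 and 540 normalized counts in cells alone to 800, 817, 810 and 844 in the co-cultures. It had the smallest p of the 10 genes and ranked 20 among all tested genes by p. The log2 fold change was 0.60 (standard error 0.04, 95% interval 0.50 to 0.69, adjusted p = 2.7e-05), from 541 ± 14.4 to 818 ± 19.0 normalized counts (mean ± SD, n = 4 per group).

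Dusp5, a nuclear phosphatase that also holds ERK in the nucleus, had 874, 761, 775 and 815 normalized counts alone. In the co-cultures it had 1102, 1169, 1206 and 1138 normalized counts. The lowest co-culture library was 229 normalized counts above the highest alone library, which was alone library 1. Dusp5 rose by 0.52 on the log2 scale (standard error 0.05, adjusted p = 0.000235), and by 0.56 without alone library 1.

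Dusp4 encodes a nuclear phosphatase with a broader choice of MAP kinases. It rose less, from 1318, 1358, 1343 and 1401 normalized counts alone to 1559, 1538, 1596 and 1583 with apoptotic cells. The groups were separate, since each varied little, with coefficients of variation of 2.59% and 1.63%. The means were 1355 ± 35.0 and 1569 ± 25.6 normalized counts, a change of 15.8% (log2 fold change 0.21, standard error 0.04, 95% interval 0.13 to 0.29, adjusted p = 0.00445).

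The Sprouty and Spred genes showed no change that passed the test. Spry2, an inhibitor of receptor tyrosine kinase signalling to Ras, stood at 802, 729, 753 and 793 normalized counts alone and at 761, 776, 779 and 829 with apoptotic cells. The groups overlapped, with 1 co-culture library above all alone libraries. The log2 fold change of Spry2 was 0.03 (standard error 0.05, adjusted p = 0.707), and its 95% interval ran from 0.949-fold to 1.10-fold.

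Spry4, a related inhibitor, was the least abundant in reads of the 10 genes, with 41 to 88 reads per library. It had 38.9, 66.7, 56.8 and 55.8 normalized counts alone and 63.2, 57.5, 52.8 and 86.1 with apoptotic cells. The lowest value was that of alone library 1 and the highest that of co-culture library 4, with the other 6 libraries mixed between 52.8 and 66.7. The log2 fold change of 0.25 (standard error 0.19, adjusted p = 0.437) had a 95% interval from 0.887-fold to 1.59-fold, which includes the sizes of the rises of Egr1 (1.47-fold) and Dusp6 (1.51-fold). It was 0.10 without alone library 1, and also 0.10 without co-culture library 4.

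Spred1 and Spred2 encode membrane-bound inhibitors of Ras, and Spred1 recruits the Ras-inactivating protein neurofibromin. Spred1 had 1644, 1825, 1844 and 1929 normalized counts alone and 1868, 1907, 2072 and 1824 with apoptotic cells. Spred2 had 648, 830, 786 and 905 normalized counts alone and 838, 908, 887 and 818 with apoptotic cells. In both genes alone library 1 was the lowest of the 8 libraries and the rest overlapped. The log2 fold changes were 0.08 for Spred1 (95% interval -0.04 to 0.21, adjusted p = 0.372) and 0.13 for Spred2 (95% interval -0.06 to 0.33, adjusted p = 0.37). Without alone library 1 they were 0.04 and 0.04.

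**Figure D2:**
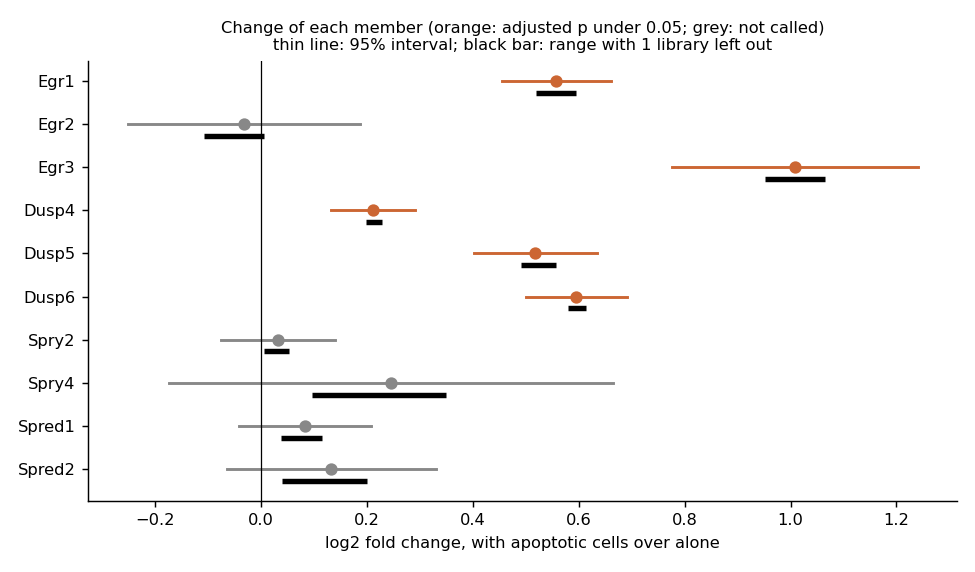
Log2 fold change of each of the 10 genes, with apoptotic cells over alone (x axis), with its 95% interval (thin line) and the range over fits that each left out 1 library (black bar). The 5 called genes, from 0.21 for Dusp4 to 1.01 for Egr3, keep intervals and ranges above 0, while the intervals of the other 5 include 0.

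Whether relatives changed by different amounts was tested on the log2 ratio of a pair of genes within each library, with an exact two-sided permutation test over the 8 libraries. There were 8 pairs within families, p-values were adjusted over the 8, and the smallest p that 4 against 4 libraries can give is 0.0286. Egr3 rose more than Egr1, by 0.45 on the log2 scale (exact permutation p = 0.0286, adjusted p = 0.0457). Egr2 lagged behind both, by 0.59 relative to Egr1 and by 1.04 relative to Egr3 (exact permutation p = 0.0286, adjusted p = 0.0457 for each). In all 3 pairs the ratios of the 4 co-cultures lay outside those of the 4 alone libraries.

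Among the phosphatases, Dusp5 and Dusp6 rose more than Dusp4. The differences were 0.31 and 0.38 on the log2 scale (exact permutation p = 0.0286, adjusted p = 0.0457 for each), again with no overlap of the ratios. Dusp6 and Dusp5 differed by 0.08, with overlapping ratios (exact permutation p = 0.114, adjusted p = 0.152). The same test gave differences of 0.21 for Spry4 relative to Spry2 and 0.05 for Spred2 relative to Spred1, both smaller than the spread between libraries (exact permutation p = 0.429 and 0.457, adjusted p = 0.457 for each).

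**Figure D3:**
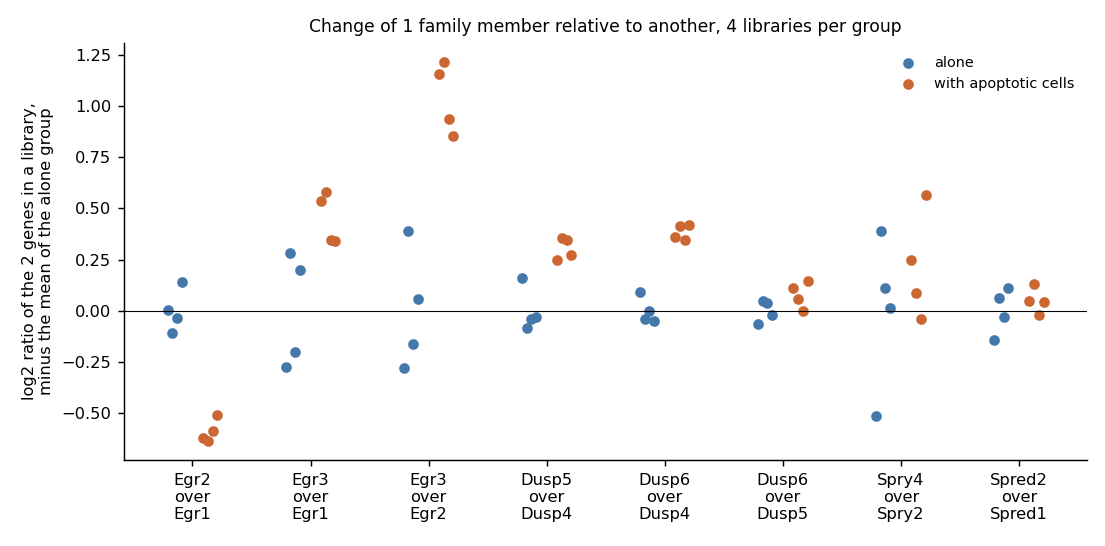
Log2 ratio of a pair of relatives in each library, with the mean of the alone group set to 0 (y axis), for 8 pairs (x axis) and 4 libraries per group (points). Ratios separate by group in the 3 EGR pairs and in the pairs of Dusp5 and Dusp6 with Dusp4, with mean differences from -0.59 to 1.04, and overlap in the other 3 pairs.

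Around these genes, 8 lists, also chosen with earlier results known, covered the rest of the ERK pathway, with 102 tested genes. Of these, 17 rose (16.7%) and 9 fell (8.82%) by limma, where 6.36% and 5.31% of all tested genes did, and the median log2 fold change was 0.03. The counts moved with the libraries kept. Of the rises, 9, 10 and 11 were called when co-culture library 1, 3 and 4 was left out. The 9 falls became 15 without alone library 1. They became 2, 2, 3 and 5 when co-culture library 1, 2, 3 and 4 was left out. Under each of the alternatives in which they were tested, 9 of the rises and 1 of the falls kept their call. These were Fos, Fosl1, Fosl2, Ier3, Errfi1, Ereg, Hgf, Lpar1 and Met among the rises and Plk2 among the falls.

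**Figure D4:**
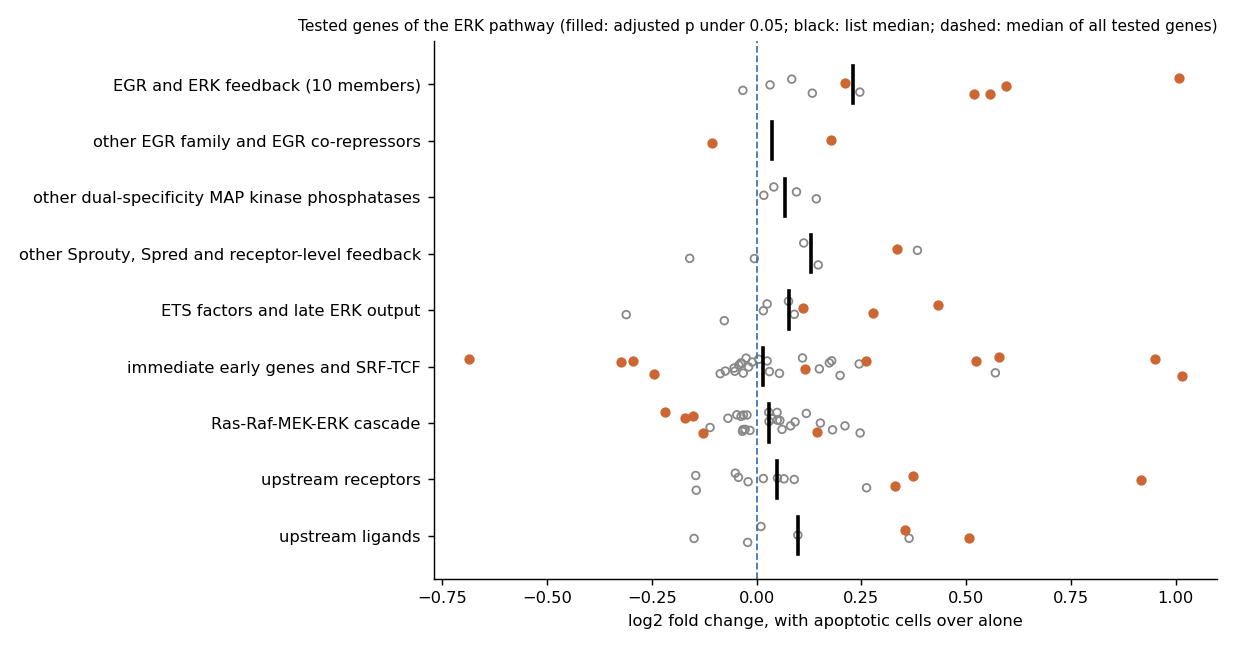
Log2 fold change with apoptotic cells over alone (x axis) of the 10 genes (top row) and of the tested genes of 8 other ERK pathway lists (points, filled where the limma adjusted p is under 0.05), with each list's median (black line) and the median of all tested genes (dashed). The 10 genes have a median of 0.23, and the medians of the 8 lists lie between 0.01 and 0.13.

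Nab1 and Nab2 encode co-repressors that bind EGR factors and limit their activity, and Nab2 is itself a target of EGR factors. They moved in opposite directions. Nab2 had 2644, 2640, 2697 and 2637 normalized counts alone and 3071, 3147, 2873 and 2928 with apoptotic cells, all above the alone libraries, a log2 fold change of 0.18 (standard error 0.04, adjusted p = 0.0123). Its call was lost without co-culture library 1 (adjusted p = 0.0525). Nab1 fell by 0.11 on the log2 scale (standard error 0.03, adjusted p = 0.0437), from 4241 ± 82.0 to 3941 ± 46.2 normalized counts (mean ± SD, n = 4 per group). The Nab1 call was lost when any library other than alone library 1 was left out, with adjusted p up to 0.124, and with no filter on low values. Egr4, the remaining EGR gene of the list, had no row under that name in the deposited table, so its level is unknown.

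None of the other dual-specificity phosphatases passed the threshold. Of 7 listed, 4 were tested and 0 were called by limma, where 6.36% of all tested genes rose and 5.31% fell. With so few genes tested, 0 calls is near those shares. The count was 0 also at an unadjusted p under 0.05, by edgeR and by DESeq2. The smallest p was that of Dusp1, an immediate early phosphatase that acts on several MAP kinases, with 299.9 ± 23.8 and 331 ± 18.1 normalized counts (log2 fold change 0.14, standard error 0.07, adjusted p = 0.232). Dusp1 passed without alone library 1 (0.19, adjusted p = 0.0421). Dusp10, which prefers JNK and p38, came next with a log2 fold change of 0.10 (standard error 0.09, adjusted p = 0.506).

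Of 6 tested genes of other Sprouty, Spred and receptor-level feedback, 1 rose (16.7%, against 6.36% of all tested genes) and 5 were not called. The gene that rose was Errfi1, whose product MIG6 binds and inhibits the EGF receptor. Its values were 1683, 1544, 1692 and 1765 normalized counts alone and 2066, 2037, 2128 and 2189 with apoptotic cells. The groups did not overlap, and Errfi1 rose by 0.33 on the log2 scale (standard error 0.05, adjusted p = 0.0016). Lrig1, a membrane protein that lowers receptor levels, had a log2 fold change of -0.16 (standard error 0.05, adjusted p = 0.0624), and passed without alone library 1 (-0.21, adjusted p = 3.24e-05) and by DESeq2. Spry1 stood at 33.2 ± 5.86 and 33.3 ± 6.90 normalized counts.

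Of 32 tested immediate early genes and partners of the serum response factor, 6 rose (18.8%) and 4 fell (12.5%), with a median log2 fold change of 0.01. Over all tested genes, 6.36% rose and 5.31% fell. Fos, the immediate early AP-1 subunit, was near the filter at 19.9, 16.7, 21.3 and 19.7 normalized counts alone and 36.5, 44.2, 40.7 and 39.1 with apoptotic cells. All co-cultures were above all alone libraries, and the log2 fold change was 1.01 (standard error 0.14, adjusted p = 0.00157). Fosl2, a longer-lived relative of Fos, went from 618 ± 43.8 to 921 ± 21.5 normalized counts (log2 fold change 0.58, standard error 0.06, adjusted p = 0.000163). The other rises were those of Ier3 (0.52), Nr4a3 (0.95), Klf10 (0.26) and Mcl1 (0.12), and the falls those of Plk2 (-0.24), Atf3 (-0.69), Ier5 (-0.30) and Maff (-0.32), named after their values were seen. Nr4a3 had 17 to 54 reads per library, its groups overlapped, and its limma adjusted p was 0.0414. Its call was kept under 8 of 16 alternatives, that of Klf10 under 10 of 17, Mcl1 under 8 of 17 and Ier3 under all 17. Fosb, Jun and Junb, further AP-1 subunits, had log2 fold changes of 0.17, -0.03 and -0.04 and were not called (adjusted p = 0.655, 0.776 and 0.841). Leaving out alone library 3 or any 1 of the co-cultures left 3 of the 6 rises, and the 4 falls became 2, 1 and 1 without co-culture library 1, 2 and 3. In those fits the 858 rises over all tested genes became 416 to 497, and the 716 falls became 356, 391 and 380 without co-culture library 1, 2 and 3.

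Among 9 tested ETS factors and late ERK outputs, 3 rose (33.3%, against 6.36% of all tested genes) and 6 were not called. Fosl1, which encodes the AP-1 subunit FRA1, stabilised by ERK, rose from 5349 ± 374 normalized counts to 6478 ± 115 (log2 fold change 0.28, standard error 0.05, adjusted p = 0.00435). The membrane protein gene Emp1 rose by 0.43 (standard error 0.10, adjusted p = 0.0161), which did not stay called when co-culture library 1 or 3 was left out. Ets1, named after its values were seen, rose by 0.11 (adjusted p = 0.0486), and its call was lost by edgeR and when any library other than alone library 1 was left out. The 3 rises became 1 without co-culture library 1 or 3, where the 858 rises over all tested genes became 416 and 445. Without alone library 1, 1 gene of the list was called lower, and the falls over all tested genes went from 716 to 1694. Etv4 and Etv5, ETS factors that follow ERK and FGF signalling, had log2 fold changes of 0.09 and 0.08 (adjusted p = 0.458 and 0.4), and Ccnd1, which encodes cyclin D1, 0.03 (adjusted p = 0.81).

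Of 29 tested genes of the cascade itself, from Ras to ERK and its target kinases, 1 rose (3.45%, against 6.36% of all tested genes) and 4 fell (13.8%, against 5.31%), with falls of at most 0.22 on the log2 scale. Shc1, an adaptor that links receptors to Ras, went from 7623 ± 194 to 6866 ± 157 normalized counts (log2 fold change -0.15, standard error 0.03, adjusted p = 0.0132), and stayed called except in the fit that omitted co-culture library 1 (adjusted p = 0.0566). Mapk3, which encodes ERK1, fell by 0.17 (standard error 0.04, adjusted p = 0.0234), which did not stay called when alone library 4 or co-culture library 1, 2 or 3 was left out. Araf rose by 0.14, and Mras and Mknk2 fell by 0.22 and 0.13, all 3 named after their values were seen. The 4 falls became 2 when alone library 2 or 3 was left out, and 2 likewise for co-culture library 3 or 4. They became 1 without co-culture library 2 and 0 without co-culture library 1, where the falls over all tested genes went from 716 to 356. The single rise was lost without any 1 library other than alone library 1 and became 2 rises without that one.

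Among the receptors upstream, 3 of 13 tested genes rose (23.1%, against 6.36% of all tested genes) and 10 were not called. Lpar1, the lysophosphatidic acid receptor that couples through G proteins to Ras and ERK among other outputs, had 1056, 1097, 1061 and 1086 normalized counts alone and 2035, 1990, 2043 and 2050 with apoptotic cells. The groups were far apart relative to their spread (log2 fold change 0.92, standard error 0.03, adjusted p = 3e-07). Met, the receptor for hepatocyte growth factor, rose by 0.33 (standard error 0.07, adjusted p = 0.0116), and Fgfr3, named after its values were seen, by 0.37 (standard error 0.09, adjusted p = 0.0204), a call lost when alone library 4 or co-culture library 1, 3 or 4 was left out. Without alone library 1, 3 receptors were called lower, in a fit where the falls over all tested genes went from 716 to 1694.

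Of 18 ligand genes, 7 were tested, of which 2 rose (28.6%, against 6.36% of all tested genes) and 5 were not called. Hgf, the ligand of Met, went from 318, 363, 356 and 352 normalized counts alone to 480, 531, 499 and 465 with apoptotic cells. The groups did not overlap, and Hgf rose by 0.51 on the log2 scale (standard error 0.06, adjusted p = 0.00076). Ereg, which encodes the EGF receptor ligand epiregulin, rose from 904 ± 61.4 normalized counts to 1154 ± 21.3 (log2 fold change 0.35, standard error 0.05, adjusted p = 0.00182). The EGF receptor gene Egfr itself had 0 reads in all 8 libraries. The epidermal growth factor family members Hbegf and Areg had log2 fold changes of 0.10 and -0.02 (adjusted p = 0.456 and 0.924).

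Genes with values most like those of Egr1 and Egr3 were sought among 8939 other genes that averaged 100 normalized counts or more and a symbol that is not a placeholder. Likeness was the root mean square difference of log2(normalized count + 1) over the 8 libraries, after each gene's own mean was subtracted. The 5 genes closest to Egr1 were Sgk1 (0.042), Fam83d (0.046), Dusp6 (0.050), Aurka (0.051) and Slc2a1 (0.051), with Dusp5 in place 6 (0.055). Sgk1 encodes a serum-induced kinase, Aurka a mitotic kinase and Slc2a1 the glucose transporter GLUT1. The 5 closest to Egr3 were Lpar1 (0.14), Ca4 (0.18), Camk1d (0.19), Gbgt1 (0.21) and Slc14a1 (0.21), and the nearest of the genes described here, Dusp6, was in place 17. Libraries, size factors and the group difference are shared by all these genes.

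**Figure D5:**
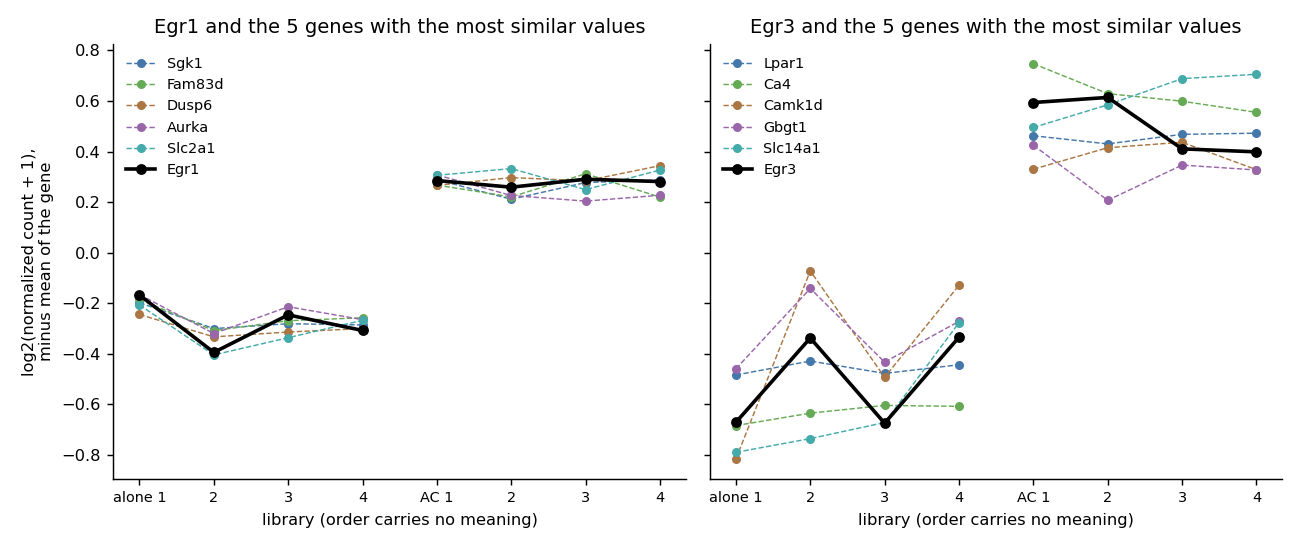
Values of log2(normalized count + 1), minus each gene's mean (y axis), in the 4 alone and 4 co-culture libraries (x axis), for Egr1 and Egr3 (black) and the 5 genes with the most similar values (colours). The genes beside Egr1 follow it to within a root mean square difference of 0.042 to 0.051, and those beside Egr3 to within 0.14 to 0.21.

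The authors' deposited table gave log2 fold changes of 0.519 for Egr1, 0.737 for Egr3, 0.201 for Dusp4, 0.472 for Dusp5 and 0.549 for Dusp6. Each had an adjusted p of at most 0.000193 in the authors' deposited table. Those of Egr2, Spry2, Spry4, Spred1 and Spred2 had adjusted p-values of 0.463 to 0.921 in the authors' deposited table. Each of the authors' rises was smaller than the limma value given above. The authors' value for Egr3 lay below the 95% interval found here (0.78 to 1.24), where DESeq2 on the recovered reads gave 1.01. The reason was not tested. Of the 9 genes found in the RefSeq gene table, Dusp6, Spry2 and Spred2 each overlap another gene with a placeholder name, and Egr3, matched by no entry, was not examined for overlaps. Since the strand setting of the counting is not given in the sources used here, reads of such a partner cannot be told apart from theirs. Human RNA from the Jurkat cells that resembles these hamster transcripts could also be counted under them, and its part in the rises was not tested.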

How the data were processed

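RNA-seq libraries from LR73 cells alone (4) and with apoptotic cells (4) were compared. Per the submitters' processing notes, FastQC, STAR, featureCounts and DESeq2 were used; no version, build or strand setting is given in the sources used here. The authors deposited 1 table with a signal for each gene and library. Its values are read counts that were scaled by a single factor for each library, since 100% of them were multiples of a library-specific step (to within 0.01 of it). The reads recovered in this way served the count tests, edgeR and DESeq2. The deposited table also held p-values, log2 fold changes, a standard error, a test score and a mean signal, per the file headers. Columns were matched by replicate number and the letters AC; a further prefix in the column names is not explained by the labels. A row with no gene name held 0.14 to 0.176% of reads and was left out.

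The test was limma-trend (limma 3.58.1, R 4.3.3) on log2(normalized count + 1), which understates changes of low genes, with the group as sole term, run on genes averaging 10 normalized counts or more. Calls were made at an adjusted p (Benjamini-Hochberg) under 0.05. Alternatives were edgeR 4.0.16 with TMM factors, DESeq2 1.42.0, other pseudocounts, filters, scaling, array weights, a replicate block and each library left out. Scripts were tested on simulated data. The 10 genes and the pathway lists were chosen with earlier results of these data known. Genes named beside the 10 were the 2 tested members of each list with the smallest adjusted p and the 5 genes most like Egr1 and Egr3; all other genes of the lists were named after their values were seen. Nothing says that the libraries came from separate cultures beyond the series text, which calls them biological replicates, so p-values may measure technical spread. No pair of libraries within a group looked like 1 library deposited again, with chi-square per degree of freedom of at least 1.55. It was 31.1, 16.6 and 20.4 for alone library 1 against alone libraries 2, 3 and 4, and at most 3.28 for the remaining pairs. Symbols were looked up in RefSeq (CriGri-PICRH-1.0), where 9 of the 10 genes, all but Egr3, were found. Promoter and protein sequences were not used here. Figures were drawn with matplotlib 3.10.9. A few items of the lists are not reported here.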

Additional observations from a re-analysis of the deposited data

Results flagged for a closer look

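Within-group values were looked at in 94 groups of 4 libraries, for the 10 genes and the other genes named. A library was listed when its gap to the nearest other library as a share of the group's range exceeded Dixon's 95% critical value, which chance gives in about 1 in 20 groups. None of the 10 genes was listed. Alone library 1 was far from the other alone libraries for 4 genes, with 4362 normalized counts of Nab1 (others 4190 to 4218), 611 of Maff (others 502 to 509), 830 of Klf10 (others 1012 to 1045) and 996 of Ereg (others 867 to 882). Alone library 3 had 2697 normalized counts of Nab2 (others 2637 to 2644). Co-culture library 2 had 3213 normalized counts of Plk2 (others 2899 to 2926) and 519 of Sgk1 (others 543 to 547).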

How the results depend on the processing

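The rises of Egr1, Egr3, Dusp4, Dusp5 and Dusp6 were called under all 17 alternatives, and the other 5 genes under none of those that tested them (Egr2 and Spry4 are below a mean of 100). Over the alternatives the log2 fold change ran from 0.52 to 0.60 for Egr1, 0.95 to 1.07 for Egr3, 0.20 to 0.23 for Dusp4, 0.49 to 0.56 for Dusp5 and 0.58 to 0.61 for Dusp6, with adjusted p at most 0.0261, that of Dusp4. Egr2 lay between -0.11 and 0.0059 over left-out libraries and was positive without alone library 1 (0.0059) or 4 (0.0048). Over all genes, the 858 rises became 1804 with array weights and, with 1 library left out, 416 to 1811, and the 716 falls became 1674 and 356 to 1694. The 17 rises of the pathway lists were 9 to 21 with 1 library left out, and the 9 falls became 14 with array weights and ran from 2 to 15. With the replicate number as a block, 498 genes rose and 400 fell, and of the pathway lists 11 and 5. Same-numbered libraries did not deviate together (correlations of -0.026, 0.068, 0.011 and -0.09), so the numbers were not taken as pairs. Matching RefSeq symbols too raised the listed pathway genes in the table from 128 to 129, by Myc. TMM scaling moved the median log2 fold change of all genes by -0.0014. Depth limits Spry4 and Egr2 most, with counting alone giving coefficients of variation of 10.1 to 13.2%. The causes of these changes were not tested.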

Other observations

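Alone library 1 lay outside the range of the other 3 alone libraries in 9 of the 10 genes, the exception being Egr3. Over all tested genes this library also stood apart. Its chi-square per degree of freedom was 31.1, 16.6 and 20.4 against alone libraries 2, 3 and 4, and at most 3.28 for the remaining pairs within a group. For a single gene, any 1 of 4 libraries is often the lowest or highest by chance. The share of all tested genes in which alone library 1 lay outside was not taken. For Egr2 the excess was within counting error (101.6 against at most 101.4 normalized counts). On the log2 scale alone library 1 stood 0.60 below the mean of the others for Spry4, 0.37 below for Spred2 and 0.18 below for Spred1. It stood 0.15 above for Egr1, 0.15 above for Egr2 and 0.16 above for Dusp5.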
